A study of Gallus gallus with 60 samples.

Results

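Pectoral muscle of Tibetan chicken embryos was compared between embryonic day 12 (E12) and embryonic day 9 (E9) by small RNA sequencing. The study's introduction places these days in the fetal phase of muscle formation, which follows an initial phase. Of the 60 samples of the series, which span embryonic stages, adult ages and other tissues, 6 were used, with 3 samples at E12 and 3 samples at E9, chosen by the stage and tissue given in their labels. The table of all stages listed 890 miRNAs, of which 687 are known and 203 are predictions of the authors, named new-gga-miRNA with a number. The 704 miRNAs above 0 in at least 1 of the 6 samples were tested, 556 known and 148 predicted. Both stages came from the same strain and the same tissue, and the labels name no treatment. The labels place the samples at a Tibetan poultry farm, whereas the study's methods say that the embryos came from purchased fertile eggs that were incubated to each stage. The labels give neither the sex of the embryos nor whether a sample is 1 embryo or a pool, so the p-values measure the spread between these samples. Values of 3 samples are given below in the order of replicates 1, 2 and 3, and a sample is written as its stage and replicate, such as E12-2.

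MicroRNAs are short RNAs cut from hairpin precursors, which guide Argonaute proteins to messenger RNAs and lower their translation or stability. A hairpin can release a mature product from either arm, named 5p and 3p, and the arm that is loaded more often is usually the more abundant. In vertebrate skeletal muscle the miR-1, miR-133, miR-206 and miR-499 families, together called myomiRs, are switched on by myogenic transcription factors as myoblasts leave the cell cycle and fuse into fibres. Members of the let-7 family accumulate in many tissues as cells mature. Embryonic pectoral tissue also holds or borders skin, skeletal elements, nerves, vessels and connective tissue, and several miRNAs are known as markers of these: the miR-200 family, miR-203 and miR-205 of epithelia, miR-140 and miR-455 of cartilage, miR-9 and miR-124 of the nervous system, miR-126 of endothelium, and miR-199 and miR-214 of mesenchyme.

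The deposited values are called TPM by the authors and are RPM values, reads scaled to a common library total with no correction for length. The recovered library totals were 11514871, 9347754 and 10506872 reads in E12 muscle and 10177680, 9576481 and 9909581 reads in E9 muscle, with that of E9-3 less certain than the others. The smallest detectable amount was taken as 3 reads, which correspond to 0.261 to 0.321 TPM. The listed miRNAs held 62.3, 42.8 and 43.1% of the library total in E12 muscle, against 60.8, 43.9 and 62.5% in E9 muscle, and summed TPM did not differ beyond the spread (exact two-sided permutation test, p = 0.5, smallest possible p = 0.1). The number of miRNAs above 0 TPM was 526, 473 and 472 in E12 muscle and 531, 499 and 537 in E9 muscle (exact two-sided permutation test, p = 0.2). E12-2 stood apart from the other E12 samples on the TPM scale, on which the most abundant miRNAs weigh most. gga-miR-205a made up 13.3% of the summed TPM of E12-2, against 0.702% in E12-1 and 0.318% in E12-3. The TPM values of E12-2 correlated with those of E12-1 and E12-3 at Pearson r = 0.815 and 0.836 across miRNAs, whereas E12-1 and E12-3 correlated at 0.955. The E9 samples correlated with each other at 0.916 to 0.960 on that scale. On log2(TPM + 1), the scale of the tests, E12-2 and E12-3 were the closest E12 pair (r = 0.977). E12-1 correlated with E12-2 at 0.959, with E12-3 at 0.966 and with E9-1 at 0.962. Results that rest on E12-2 are given with and without it. Of the tested miRNAs, 18 were listed at 0 in some samples and at 10 TPM or more in others. gga-miR-21-5p, for example, was listed at 2116, 0 and 0 TPM in E12 muscle, against 1809.7, 0 and 2089 TPM in E9 muscle, and new-gga-miRNA-189 at 611 TPM in E12-1 and at 0 in the other 5 samples. Such zeros can be failed assignments, so these miRNAs are given by their values and without folds, and 10 tested miRNAs that averaged 1 TPM or more share every value with another name and stand for 1 measurement per pair.

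A miRNA is said to be called, and to be higher or lower, where limma's moderated test on log2(TPM + 1) gave an unadjusted p of at most 0.05 and the log2 change, E12 minus E9, was at least 1 in size. By this rule 87 of the 704 miRNAs (12.4%) were called, 25 of them higher in E12 muscle (3.55%) and 62 lower (8.81%). At a Benjamini-Hochberg adjusted p of at most 0.05, with the same limit on the change, 34 were called (4.83%), 10 higher and 24 lower. That stricter count depended on single samples: it was 17 without E12-2, 7 without E12-3, 6 without E9-2 and 12 without E9-3. It was 38 without E12-1 and 30 without E9-1. All E12 samples lay above or below all E9 samples for 180 miRNAs (25.6%), 62 above and 118 below, and for 84 of the 87 called miRNAs. Among the 206 miRNAs that averaged 10 TPM or more at either stage, 62 were called, 17 higher and 45 lower. The fold changes are on the log2(TPM + 1) scale, which understates the change of low miRNAs.

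The split between higher and lower calls depended on the scale. The median log2 change was -0.09 over all tested miRNAs and -0.30 over those with at least 10 TPM. When each sample was centred on its median over 264 miRNAs, a shift of -0.48 between the stages was removed. Then 84 miRNAs were called higher (11.9% of those tested) and 35 lower (4.97%). Of these calls 70.6% were higher, against 28.7% on the deposited scale. The same shift was taken from every tested miRNA, also from those near 0 TPM, and the median log2 change over all tested miRNAs became 0.39. This favours higher calls, and the shares of 11.9% and 4.97% given beside the lists below carry it too. Of the 87 miRNAs called on the deposited scale, 56 were also called after centring, all 25 higher ones and 31 of the 62 lower ones, and none changed direction. When each sample was rescaled to the sum of its listed miRNAs, 44 were called higher and 67 lower (39.6% higher). On recovered reads, the share of higher calls was 40.8% by edgeR on all 6 samples. It was 46.8% by edgeR and 51.1% by DESeq2 on 5 samples. Without E12-2, 32 of 691 were called higher (4.63%) and 57 lower (8.25%), 74 of which were called with it as well. Changes below are on the deposited scale unless centring is named.

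**Figure D1:**
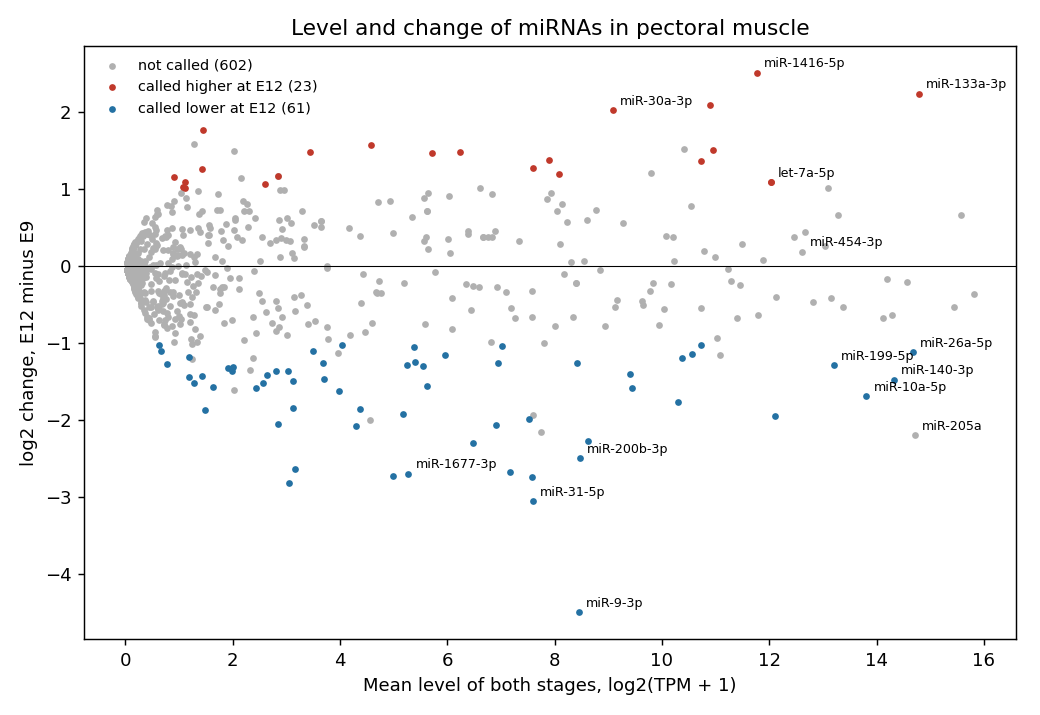
Change of each tested miRNA (y axis, log2 change, E12 minus E9, on the log2(TPM + 1) scale) against its mean level over the stages (x axis, log2(TPM + 1)). Each point is a miRNA, red if called higher in E12 muscle, blue if called lower and grey if not called, and the 18 miRNAs listed at 0 in some samples and at 10 TPM or more in others are left out. gga-miR-133a-3p (2.24) and gga-miR-1416-5p (2.51) are high in level and in rise, gga-miR-9-3p (-4.50) fell furthest among the points drawn, and more blue than red points lie at high levels.

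The myomiRs held a larger share of the summed TPM in every E12 sample than in any E9 sample. They made up 12.7, 8.02 and 9.29% of the summed TPM in E12 muscle, against 2.37, 2.04 and 1.68% in E9 muscle, with means of 9.99% and 2.03% and no overlap (exact two-sided permutation test, p = 0.1, the smallest that 3 against 3 allows). gga-miR-133a-3p, a muscle miRNA that acts on serum response factor and other regulators of myoblast growth, was almost the whole of this: it stood at 73212, 31466 and 36933 TPM in E12 muscle, against 12579, 7408 and 8627 TPM in E9 muscle. Its log2 change was 2.24 ± 0.38 (SE), a 4.73-fold rise (limma, Benjamini-Hochberg adjusted p = 0.0383), and it held rank 3 by mean level in E12 muscle while it was absent from the 10 most abundant miRNAs of E9 muscle. Every E12 sample lay above every E9 sample, with E12-1 the highest of the 6.

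Of the 9 myomiRs tested, 3 were called higher and 0 lower, with a median log2 change of 0.72, beside -0.09 and 3.55% called higher over all tested miRNAs, and 6 were called higher after centring, beside 11.9%. gga-miR-133c-3p, a near copy of gga-miR-133a-3p from another locus, stood at 3531, 1698 and 2148 TPM in E12 muscle, against 1109, 831 and 803 TPM in E9 muscle, a log2 change of 1.37 ± 0.31 (SE) (limma adjusted p = 0.0602, not past the adjusted threshold). The stages did not overlap. gga-miR-499-3p, from a hairpin that lies within a myosin heavy chain gene, stood at 132, 40.4 and 63.1 TPM in E12 muscle, against 24.6, 20.8 and 28.7 TPM in E9 muscle, and its log2 change was 1.47 ± 0.44 (SE) (limma adjusted p = 0.116). Its call was lost without E9-2 (1.36), on untransformed TPM (1.63) and in the fit of all pectoral muscle samples, where the limma adjusted p was 0.161. The other arm, gga-miR-499-5p, overlapped between the stages, with 589, 145 and 189.9 TPM in E12 muscle, against 107.4, 201 and 405 TPM in E9 muscle, and had a log2 change of 0.29 ± 0.70 (SE).

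The remaining myomiRs were not called. gga-miR-133a-5p, the less abundant arm of the miR-133a hairpin, had 214, 80.9 and 105 TPM in E12 muscle, against 72.2, 43.6 and 67.8 TPM in E9 muscle, a log2 change of 1.01 with a limma adjusted p of 0.232. gga-miR-133b had 483, 219.9 and 295 TPM in E12 muscle, against 229.7, 182 and 167 TPM in E9 muscle (log2 change 0.72 ± 0.32 (SE)), and only E12-2 lay within the E9 range. gga-miR-206, which is specific to skeletal muscle, had 733, 547 and 193 TPM in E12 muscle, against 242, 245 and 377 TPM in E9 muscle, and here E12-3 was the lowest of all 6 samples (log2 change 0.59 ± 0.53 (SE), 95% interval -0.71 to 1.90). gga-miR-1a-3p was listed at 0, 119 and 86.3 TPM in E12 muscle, against 32.4, 32.8 and 63.1 TPM in E9 muscle. The listing at 0 in the library with the most reads can be a failed assignment, so no fold is given, and gga-miR-1b-3p was at or below 0.908 TPM in every sample.

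**Figure D2:**
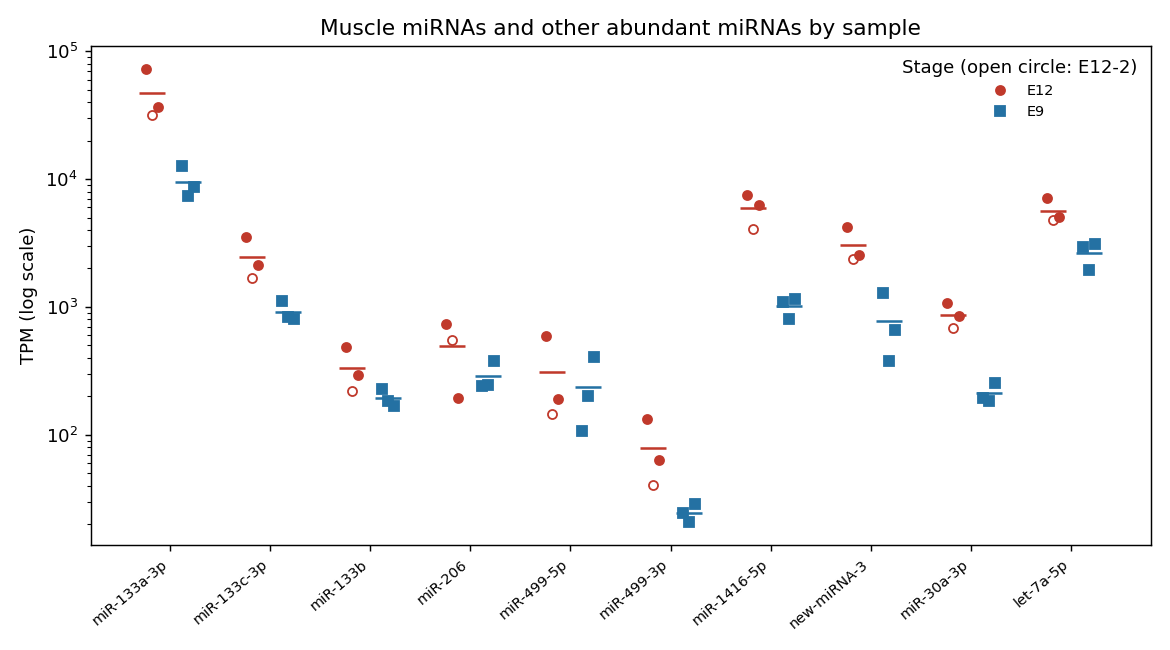
TPM (y axis, log scale) of 10 miRNAs in each E12 sample (red circles, left, with E12-2 open) and each E9 sample (blue squares, right), with a line at the mean of each stage. The E12 samples lie above the E9 samples for gga-miR-133a-3p, gga-miR-133c-3p, gga-miR-499-3p, gga-miR-1416-5p, new-gga-miRNA-3, gga-miR-30a-3p and gga-let-7a-5p, and the stages overlap for gga-miR-133b, gga-miR-206 and gga-miR-499-5p.

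Outside the myomiRs, the largest rise among miRNAs seen at both stages was that of gga-miR-1416-5p, with 7564, 4065 and 6249 TPM in E12 muscle, against 1103, 803 and 1161 TPM in E9 muscle. Its log2 change was 2.51 ± 0.29 (SE), a 5.71-fold rise (limma adjusted p = 0.0106), every E12 sample lay above every E9 sample, and the call held when any 1 of the 6 samples was left out. A pair of predicted miRNAs also rose at high level. new-gga-miRNA-3 had 4193, 2371 and 2549.8 TPM in E12 muscle, against 1279.9, 379 and 665 TPM in E9 muscle (log2 change 2.10 ± 0.49 (SE), limma adjusted p = 0.0644), and new-gga-miRNA-2 had 3806, 2477 and 2467 TPM in E12 muscle, against 1183, 769 and 1099.7 TPM in E9 muscle (log2 change 1.51 ± 0.26 (SE), limma adjusted p = 0.0383). In both the stages did not overlap, and E9-2 was the lowest of the E9 samples.

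Among the rises at lower level, gga-miR-1786 had 49.2, 34.9 and 20.5 TPM in E12 muscle, against 12.2, 6.58 and 13.6 TPM in E9 muscle (log2 change 1.58 ± 0.40 (SE), limma adjusted p = 0.0757) and new-gga-miRNA-32 had 14.2, 11.6 and 19.2 TPM in E12 muscle, against 3.54, 3.97 and 6.86 TPM in E9 muscle (log2 change 1.48 ± 0.29 (SE), limma adjusted p = 0.0485). gga-miR-193b-3p, known from mammals for its part in brown fat and muscle cell fate, had 174, 70.1 and 88.9 TPM in E12 muscle, against 56.6, 24.1 and 34.6 TPM in E9 muscle, a log2 change of 1.48 ± 0.45 (SE) (limma adjusted p = 0.119), and its call was lost without E9-2 (1.195) or E9-3 (1.45). Of the 6 members of the miR-193 and miR-365 group tested, gga-miR-193b-3p was the 1 called higher and gga-miR-193a-3p the 1 called lower, beside 3.55% and 8.81% of all tested miRNAs. gga-miR-193a-3p stood at 8.77, 6.42 and 3.71 TPM in E12 muscle, against 14.9, 11.4 and 16.2 TPM in E9 muscle, with the call lost without E12-3 (-0.82) and after centring. gga-miR-3523 and gga-miR-1456-5p, named here after their values were seen, rose as well, with log2 changes of 1.28 ± 0.26 (SE) and 1.2001 ± 0.37 (SE), and the call on gga-miR-1456-5p was lost without E12-3 (0.95), E9-2 (0.92) or E9-3 (1.18).

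The miR-30 family, whose 5p arms are broadly expressed in muscle, held calls in both directions on the deposited scale only. Of its 10 members tested, 2 were called higher and 1 lower, beside 3.55% and 8.81% of all tested miRNAs, with a median log2 change of 0.77. After centring 6 were called higher and 0 lower, beside 11.9% and 4.97%. Without E12-2 the counts were 2 and 0, beside 4.63% and 8.25%. Both members called higher on the deposited scale were 3p arms. gga-miR-30a-3p stood at 1075, 683 and 851 TPM in E12 muscle, against 195, 185 and 253 TPM in E9 muscle, a log2 change of 2.03 ± 0.23 (SE) or a 4.08-fold rise (limma adjusted p = 0.0106), with E12 samples close together and far above E9. gga-miR-30c-2-3p stood at 420.0, 287 and 324 TPM in E12 muscle, against 144, 100.2 and 148 TPM in E9 muscle (log2 change 1.39 ± 0.23 (SE), limma adjusted p = 0.0382). gga-miR-30c-1-3p passed the adjusted p but not the limit on size, with 318, 300.5 and 342 TPM in E12 muscle, against 176, 146 and 173 TPM in E9 muscle (log2 change 0.95 ± 0.15 (SE), limma adjusted p = 0.0327). The 1 lower member was a 5p arm, gga-miR-30e-5p, at 1119.6, 650.1 and 626 TPM in E12 muscle, against 1623, 1275 and 2619 TPM in E9 muscle (log2 change -1.19 ± 0.36 (SE), limma adjusted p = 0.119), whose call was lost after centring and without E12-2 (-1.07), E12-3 (-1.04) or E9-3 (-0.90). gga-miR-30c-5p, the most abundant member in E12 muscle, had 17042, 7733 and 9761 TPM in E12 muscle, against 9522, 3148 and 5161 TPM in E9 muscle and was not called (log2 change 1.02 ± 0.49 (SE), limma adjusted p = 0.288). After centring it was called higher (1.49, limma adjusted p = 0.0457).

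Of 14 let-7 family members tested, 2 were called higher and 0 lower, beside 3.55% higher over all tested miRNAs, with a median log2 change of 0.38, and 5 were called higher after centring, beside 11.9%. The calls were gga-let-7a-5p and gga-let-7j-5p, which have the same value in every sample of the table and stand for 1 measurement, with 7129.9, 4790.0 and 5063 TPM in E12 muscle, against 2927, 1940.4 and 3127 TPM in E9 muscle. Their log2 change was 1.09 ± 0.26 (SE) (limma adjusted p = 0.0683), the stages did not overlap, and the call was lost without E12-1 (0.92) or E9-2 (0.88), where the change fell under the limit of 1. gga-let-7f-5p, the most abundant member by mean, had 8920.0, 6039 and 7240.2 TPM in E12 muscle, against 4725, 4056 and 8053 TPM in E9 muscle (log2 change 0.45 ± 0.31 (SE)) and overlapped through E9-3. gga-let-7k-5p (log2 change 0.78 ± 0.30 (SE)), gga-let-7c-5p (0.29 ± 0.25 (SE)) and gga-let-7i (0.12 ± 0.22 (SE)) were not called.

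The epithelial miRNAs were lower in 2 of the 3 E12 samples and high in E12-2. Summed over the 9 members, they stood at 6101, 62596 and 2070.2 TPM in E12 muscle, against 51722, 36099 and 33942 TPM in E9 muscle, so that E12-1 and E12-3 lay below the E9 samples while E12-2 exceeded all of them. With all samples, 0 members were called higher and 4 lower, beside 8.81% lower over all tested miRNAs, with a median log2 change of -2.01. Without E12-2, all 9 were called lower, beside 8.25%, with a median of -3.10. E12-2 was set apart by gga-miR-205a, a member of this list, so leaving that sample out favours lower calls here. The counts and changes without E12-2 are therefore a description and not a separate test, here and for the single members below. Fewer epithelial cells and less of these miRNAs in each cell cannot be told apart in bulk tissue, and this holds for each marker group below. Whether the amount of skin or other epithelium taken with the muscle differed between samples was not tested.

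gga-miR-205a, a miRNA of stratified epithelia such as epidermis, was the most abundant of the group, with 4374, 56768 and 1371 TPM in E12 muscle, against 40713, 30389.9 and 26844 TPM in E9 muscle. It was not called with all samples (log2 change -2.20 ± 1.33 (SE), limma adjusted p = 0.393), and without E12-2 its log2 change was -3.71 (limma adjusted p = 0.0465). gga-miR-205b had 1496, 4483 and 631 TPM in E12 muscle, against 9691, 4518 and 5610.1 TPM in E9 muscle (log2 change -1.95 ± 0.74 (SE), limma adjusted p = 0.213), and -2.69 without E12-2. Its call was lost without E12-1 (-1.90), E12-3 (-1.27), E9-1 (-1.64), E9-2 (-2.19) or E9-3 (-2.03). gga-miR-203a, which in mammals promotes exit of epidermal cells from the cell cycle, had 25.7, 581 and 5.90 TPM in E12 muscle, against 201, 159 and 186 TPM in E9 muscle and was not called (log2 change -1.94 ± 1.58 (SE)), while without E12-2 the change was -3.75 (limma adjusted p = 0.0609).

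The miR-200 family keeps epithelial cells in their state by acting on ZEB transcription factors. gga-miR-200a-3p had 29.9, 102 and 14.5 TPM in E12 muscle, against 206, 228 and 272 TPM in E9 muscle (log2 change -2.68 ± 0.68 (SE), limma adjusted p = 0.0757), and its call held when any 1 sample was left out. The E9 samples were close together and E12-3 was lowest. gga-miR-200b-3p had 101, 339 and 25.2 TPM in E12 muscle, against 593, 448 and 613 TPM in E9 muscle (log2 change -2.50 ± 0.90 (SE), limma adjusted p = 0.187), with the call lost without E12-1 (-2.54), E9-1 (-2.44), E9-2 (-2.64) or E9-3 (-2.42). gga-miR-429-3p had 65.9, 258 and 18.6 TPM in E12 muscle, against 272, 299.6 and 363 TPM in E9 muscle and was not called (log2 change -2.15 ± 0.91 (SE)), although the stages did not overlap. Without E12-2 the log2 changes of these were -3.42, -3.41 and -3.10, with limma adjusted p of 0.0222, 0.0766 and 0.0766 in the same order.

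**Figure D3:**
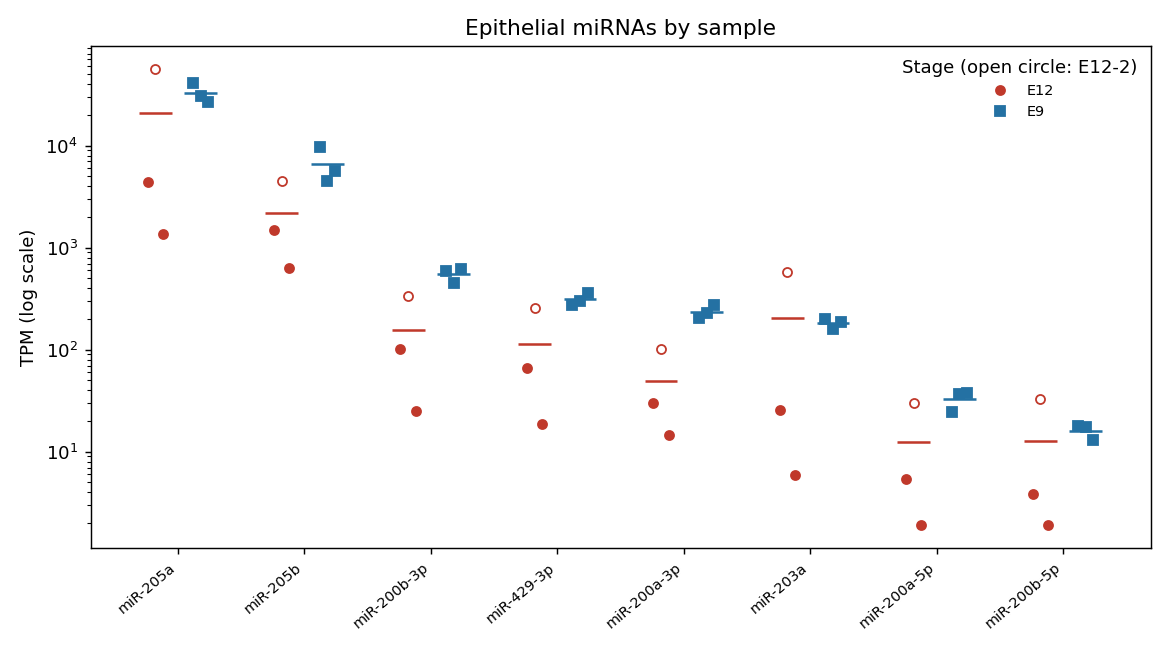
TPM (y axis, log scale) of 8 epithelial miRNAs in each E12 sample (red circles, left, with E12-2 open) and each E9 sample (blue squares, right), with a line at the mean of each stage. E12-2 is the highest E12 sample for all 8, and it exceeds every E9 sample for gga-miR-205a, gga-miR-203a and gga-miR-200b-5p, while E12-1 and E12-3 lie below the E9 samples throughout.

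Most of the cartilage miRNAs fell. Of 4 members tested, 3 were called lower and 0 higher, on the deposited scale and after centring, beside 8.81% and 4.97% lower over all tested miRNAs, with a median log2 change of -1.63, and the sum of the 4 was 18739, 9144 and 8895 TPM in E12 muscle, against 30346, 29330.5 and 37604 TPM in E9 muscle. gga-miR-140-3p, which arises from an intron of WWP2 and is needed for normal growth of cartilage in mice, had 16966, 8509.9 and 8149.9 TPM in E12 muscle, against 27417, 26935 and 34453 TPM in E9 muscle (log2 change -1.48 ± 0.32 (SE), limma adjusted p = 0.0555). gga-miR-140-5p had 111, 27.5 and 31.3 TPM in E12 muscle, against 337, 215 and 425 TPM in E9 muscle (log2 change -2.74 ± 0.59 (SE), limma adjusted p = 0.0542). gga-miR-455-5p, from an intron of a fibrillar collagen gene, had 966, 391 and 455 TPM in E12 muscle, against 1875, 1722 and 2129.9 TPM in E9 muscle (log2 change -1.77 ± 0.36 (SE), limma adjusted p = 0.0502). In all of these the stages did not overlap, E12-1 was the highest E12 sample, and the calls held when any 1 sample was left out, but none passed the adjusted threshold. gga-miR-455-3p had 696, 215 and 259 TPM in E12 muscle, against 717, 459 and 596 TPM in E9 muscle and was not called (log2 change -0.78 ± 0.48 (SE)).

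The miRNAs encoded within Hox gene clusters, which mark position along the body axis, were lower in part. Of 7 tested, 4 were called lower and 0 higher, with a median log2 change of -1.30, and 2 were called lower without E12-2. Over all tested miRNAs 8.81% were called lower, and 8.25% without E12-2. gga-miR-10a-5p had 9861, 3628 and 6177 TPM in E12 muscle, against 16017, 12093 and 38449.6 TPM in E9 muscle (log2 change -1.69 ± 0.56 (SE), limma adjusted p = 0.147), and gga-miR-10a-3p had 61.4, 27.3 and 40.7 TPM in E12 muscle, against 101, 166 and 319.8 TPM in E9 muscle (log2 change -2.07 ± 0.50 (SE), limma adjusted p = 0.0691). E9-3 was the highest sample for both, and the call on gga-miR-10a-5p was lost without E12-2 (-1.32), E12-3 (-1.71) or E9-3 (-1.203). gga-miR-10b-3p had 9.73, 5.56 and 4.57 TPM in E12 muscle, against 18.9, 15.6 and 33.9 TPM in E9 muscle (log2 change -1.62 ± 0.38 (SE), limma adjusted p = 0.0644). gga-miR-196-1-3p had 38.0, 13.6 and 27.8 TPM in E12 muscle, against 53.5, 46.1 and 95.4 TPM in E9 muscle (log2 change -1.30 ± 0.45 (SE)), with the call lost after centring and without E12-2 (-0.90), E12-3 (-1.39), E9-1 (-1.41) or E9-3 (-0.99). The abundant arms gga-miR-10b-5p, at 17011, 9857 and 12663 TPM in E12 muscle, against 21931, 11444 and 34533 TPM in E9 muscle, and gga-miR-196-5p, at 2361, 1394 and 1812 TPM in E12 muscle, against 1510.3, 1028 and 2521 TPM in E9 muscle, were not called (log2 changes -0.68 ± 0.44 (SE) and 0.20 ± 0.38 (SE)).

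Among the neural miRNAs, the miR-9 arms were the most abundant at E9 and were called lower in E12 muscle. The list summed to 309, 191 and 168 TPM in E12 muscle, against 849.9, 575 and 3265 TPM in E9 muscle. Of 12 tested, 4 were called lower and 0 higher, with a median log2 change of -0.55, while 3 were called lower after centring and 2 without E12-2. Over all tested miRNAs 8.81% were called lower, 4.97% after centring and 8.25% without E12-2. gga-miR-9-3p, from a hairpin known for its role in neural progenitors, had 29.96, 15.8 and 14.3 TPM in E12 muscle, against 292, 204 and 1541 TPM in E9 muscle, the steepest fall among called miRNAs with at least 10 TPM (log2 change -4.50 ± 0.80 (SE), limma adjusted p = 0.0383). The other arm, gga-miR-9-5p, had 152.1, 92.2 and 78.5 TPM in E12 muscle, against 394, 229 and 1417 TPM in E9 muscle (log2 change -2.28 ± 0.70 (SE), limma adjusted p = 0.122), with the call lost without E12-2 (-2.20) or E12-3 (-2.08). E9-3 was the highest sample for both arms, and E9-1 and E9-2 also exceeded all E12 samples. gga-miR-219b, an oligodendrocyte miRNA in mammals, had 110.0, 65.5 and 71.3 TPM in E12 muscle, against 136, 130.1 and 258 TPM in E9 muscle (log2 change -1.04 ± 0.35 (SE)), with the call lost after centring and without E12-2 (-0.90), E12-3 (-0.96) or E9-3 (-0.73). gga-miR-124a-3p, a miRNA of neurons, was called lower with 2.08, 4.07 and 1.62 TPM in E12 muscle, against 6.29, 4.07 and 17.8 TPM in E9 muscle, with E12-2 and E9-2 close in level, and its call was lost after centring and without E12-1 (-1.28), E12-3 (-1.16), E9-1 (-1.502) or E9-3 (-0.82). gga-miR-137-3p was listed at 0, 0 and 0 TPM in E12 muscle, against 6.68, 0 and 14.5 TPM in E9 muscle, overlapped between the stages and was not called. The part that nerve or spinal tissue plays in these values was not tested.

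**Figure D4:**
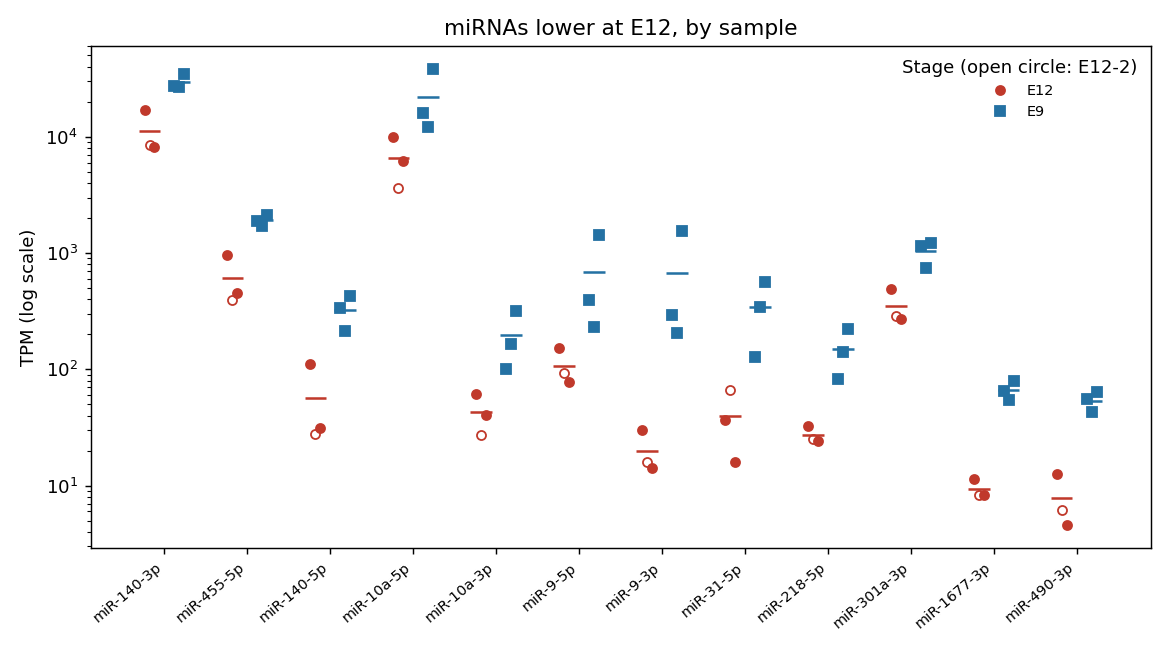
TPM (y axis, log scale) of 12 miRNAs lower at E12 in each E12 sample (red circles, left, with E12-2 open) and each E9 sample (blue squares, right), with a line at the mean of each stage. The stages do not overlap for any of the 12, and E9-3 is the highest sample for all 12.

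Several of the steepest falls lay outside these groups. gga-miR-31-5p, which in mouse satellite cells holds back translation of Myf5, had 36.6, 66.5 and 15.99 TPM in E12 muscle, against 127, 342 and 569 TPM in E9 muscle (log2 change -3.06 ± 0.72 (SE), limma adjusted p = 0.0676), and its call held without any 1 sample. gga-miR-218-5p, from introns of SLIT genes and abundant in motor neurons of mice, had 32.2, 25.0 and 24.3 TPM in E12 muscle, against 82.6, 141 and 220.5 TPM in E9 muscle (log2 change -2.30 ± 0.37 (SE), limma adjusted p = 0.0346). In both, the lowest E9 sample was E9-1 and it still lay above every E12 sample. gga-miR-490-3p, from an intron of a muscarinic receptor gene, had 12.7, 6.20 and 4.57 TPM in E12 muscle, against 55.2, 42.7 and 63.6 TPM in E9 muscle (log2 change -2.73 ± 0.37 (SE), limma adjusted p = 0.0194), and gga-miR-490-5p fell with it to 1.48, 0.963 and 0.571 TPM in E12 muscle, against 8.55, 14.2 and 17.7 TPM in E9 muscle (log2 change -2.82 ± 0.31 (SE), limma adjusted p = 0.0106).

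The hairpins miR-1677 and miR-551 gave falls of narrow spread in their 3p arms. gga-miR-1677-3p had 11.4, 8.24 and 8.28 TPM in E12 muscle, against 65.1, 54.1 and 78.6 TPM in E9 muscle (log2 change -2.70 ± 0.21 (SE), limma adjusted p = 0.00421), and gga-miR-551-3p had 2.17, 1.498 and 0.857 TPM in E12 muscle, against 15.1, 11.8 and 16.1 TPM in E9 muscle (log2 change -2.64 ± 0.25 (SE), limma adjusted p = 0.00861). Both stages were tight and far apart for each, and the calls held without any 1 sample and after centring. gga-miR-1677-5p fell less, with 43.8, 37.3 and 29.0 TPM in E12 muscle, against 120.4, 68.1 and 66.5 TPM in E9 muscle (log2 change -1.15 ± 0.29 (SE)), and its call was lost after centring and without E12-3 (-0.998) or E9-1 (-0.88). gga-miR-148a-5p, the rare arm of its hairpin, had 17.0, 13.9 and 11.1 TPM in E12 muscle, against 49.3, 53.2 and 64.8 TPM in E9 muscle (log2 change -1.93 ± 0.21 (SE), limma adjusted p = 0.0106), whereas the abundant gga-miR-148a-3p had 10920.2, 6877 and 8314 TPM in E12 muscle, against 10661, 11307 and 15684 TPM in E9 muscle and was not called (log2 change -0.53 ± 0.25 (SE)). new-gga-miRNA-5, at 423, 200.3 and 399.5 TPM in E12 muscle, against 761, 463 and 1811 TPM in E9 muscle, was called lower at the edge of the threshold (log2 change -1.41 ± 0.57 (SE), limma adjusted p = 0.232), and, of the fits that leave out 1 sample, only that without E9-2 (-1.86) kept that call, which was lost without E12-1 (-1.60), E12-2 (-1.06), E12-3 (-1.56), E9-1 (-1.498) or E9-3 (-0.87).

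Other miRNAs called lower with at least 10 TPM were chosen for naming after their values were seen. gga-miR-183, known from sensory cells, had 92.2, 43.4 and 67.4 TPM in E12 muscle, against 208, 159 and 528 TPM in E9 muscle (log2 change -1.99 ± 0.52 (SE)), again with E9-3 the highest. gga-miR-184-3p had 18.2, 22.9 and 29.3 TPM in E12 muscle, against 52.6, 63.4 and 102 TPM in E9 muscle (log2 change -1.56 ± 0.31 (SE), limma adjusted p = 0.0485), gga-miR-135a-5p had 10.7, 6.20 and 6.09 TPM in E12 muscle, against 31.4, 17.6 and 46.1 TPM in E9 muscle (log2 change -1.86 ± 0.40 (SE)), and gga-miR-138-5p had 29.3, 20.0 and 15.4 TPM in E12 muscle, against 46.4, 51.8 and 60.1 TPM in E9 muscle (log2 change -1.29 ± 0.26 (SE), limma adjusted p = 0.0496). The stages did not overlap for any of these, and the call on gga-miR-138-5p was lost after centring. gga-miR-460a-3p had 13.8, 4.17 and 3.997 TPM in E12 muscle, against 30.8, 24.4 and 34.6 TPM in E9 muscle (log2 change -2.08 ± 0.46 (SE)).

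The 3p arms of the miR-130, miR-301 and miR-454 hairpins have a common seed, and gga-miR-454-3p is the member the study followed in myoblasts. The list holds the 5p arms as well, which come from the other side of the hairpin. Of 10 arms tested, 3 were called lower and 0 higher, with a median log2 change of -0.63, and all 3 were 3p arms. After centring 1 was called lower and 2 higher, and the 2 higher were the 5p arms gga-miR-130a-5p and gga-miR-130c-5p. Over all tested miRNAs 8.81% were called lower and 3.55% higher, and 4.97% and 11.9% after centring. gga-miR-301a-3p had 489, 286 and 272 TPM in E12 muscle, against 1140.4, 749.9 and 1208 TPM in E9 muscle (log2 change -1.59 ± 0.31 (SE), limma adjusted p = 0.0485). gga-miR-130a-3p had 1084, 807 and 892 TPM in E12 muscle, against 1568, 2051 and 2588 TPM in E9 muscle (log2 change -1.14 ± 0.23 (SE), limma adjusted p = 0.051), and gga-miR-301b-3p had 111, 54.3 and 54.2 TPM in E12 muscle, against 171, 126 and 217 TPM in E9 muscle (log2 change -1.26 ± 0.36 (SE), limma adjusted p = 0.102). The stages did not overlap for these 3, and the calls on gga-miR-130a-3p and gga-miR-301b-3p were lost after centring. The call on gga-miR-130a-3p was also lost without E9-3 (-0.96). gga-miR-454-3p, by far the most abundant member, did not separate the stages, with 9207, 4203 and 6042 TPM in E12 muscle, against 8646, 2618 and 6999 TPM in E9 muscle (log2 change 0.19 ± 0.53 (SE), 95% interval -1.13 to 1.502). The lowest sample was E9-2 and the highest E12-1. The direction of this change was negative without E12-1 (-0.10) and without E9-2 (-0.34).

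Hairpins tied to gene regulation in myoblasts were counted with both arms, whether or not the arm itself has a known role. Besides the myomiRs, 15 arms were tested from hairpins that favour differentiation in culture, mostly in mouse cells. Their median log2 change was 0.00, which is that of gga-miR-29c-5p, an arm near 0 TPM, and -0.20 over the 11 with at least 10 TPM. Of these 15, 0 were called higher and 1 lower, beside 3.55% higher and 8.81% lower over all tested miRNAs. The 1 was gga-miR-26a-5p, which acts on Ezh2 in mouse myoblasts, at 22789.8, 12408 and 14922 TPM in E12 muscle, against 33453, 29518 and 44018 TPM in E9 muscle (log2 change -1.12 ± 0.28 (SE), limma adjusted p = 0.0757). The stages did not overlap, and its call was lost after centring and without E12-2 (-0.93) or E9-3 (-0.96). gga-miR-101-3p, another miRNA that acts on Ezh2 in mammals, had 270.2, 204 and 139 TPM in E12 muscle, against 405, 454.2 and 569.8 TPM in E9 muscle (log2 change -1.26 ± 0.29 (SE), limma adjusted p = 0.0613), with the call lost after centring. Thus 2 of 5 members of the miR-26 and miR-101 group were called lower, beside 8.81% over all tested miRNAs, and 0 after centring. Of 10 arms from hairpins that oppose differentiation in culture, again with rare arms included, 2 were called lower and 0 higher. Both came from the miR-31 hairpin, beside the same shares over all tested miRNAs. The median log2 change of these 10 was -0.01 and turned to 0.46 after centring, and it was -0.39 over the 6 with at least 10 TPM. gga-miR-31-3p was a low arm, with means of 0.172 TPM in E12 muscle and 2.38 TPM in E9 muscle, and its call was lost after centring. gga-miR-222a, the most abundant of the miR-221 and miR-222 pair, had 15186, 10115 and 10733 TPM in E12 muscle, against 11712, 4964 and 7094 TPM in E9 muscle and was not called (log2 change 0.67 ± 0.36 (SE)), as was each of the 5 members of that pair tested.

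The mesenchymal and vascular markers gave 1 call each, both lower. Of 4 mesenchymal miRNAs tested, 1 was called lower and 0 higher, beside 8.81% lower over all tested miRNAs, with a median of -0.51. gga-miR-199-5p had 5270.3, 4994 and 5835 TPM in E12 muscle, against 10348, 12229.5 and 17718 TPM in E9 muscle (log2 change -1.29 ± 0.23 (SE), limma adjusted p = 0.0383), with no overlap and the call lost after centring. gga-miR-199-3p had 48377, 28109 and 34387 TPM in E12 muscle, against 46716, 50279.6 and 60288 TPM in E9 muscle and was not called (log2 change -0.53 ± 0.24 (SE)), and the ratio of the arms was not called either (difference -0.76 ± 0.27 (SE)). gga-miR-214 had 8019.6, 4951 and 5606 TPM in E12 muscle, against 7920.0, 3138 and 4088 TPM in E9 muscle and was not called (log2 change 0.38 ± 0.39 (SE)). gga-miR-126-3p, an endothelial miRNA from an intron of EGFL7, had 1542, 761 and 1026 TPM in E12 muscle, against 1938, 1611 and 3261 TPM in E9 muscle (log2 change -1.03 ± 0.37 (SE), limma adjusted p = 0.187). It was the 1 called lower of the 2 vascular members, beside 8.81% over all tested miRNAs. Its call was lost after centring and without E12-2 (-0.78), E12-3 (-0.9996), E9-1 (-1.11) or E9-3 (-0.73). The other member, gga-miR-126-5p, overlapped between the stages, with 1476, 948 and 1182 TPM in E12 muscle, against 805, 1152 and 1572 TPM in E9 muscle (log2 change 0.06 ± 0.30 (SE)). Of the 2 erythroid miRNAs, 1 was called lower, beside 8.81% over all tested miRNAs. This was gga-miR-144-5p, with 12.2, 7.81 and 8.57 TPM in E12 muscle, against 13.8, 18.7 and 31.5 TPM in E9 muscle. Its call was lost after centring and without E12-2 (-0.91), E12-3 (-0.97) or E9-3 (-0.72), while gga-miR-144-3p was not called (log2 change 0.11 ± 0.37 (SE)).

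The miR-302 and miR-367 miRNAs, which mark pluripotent cells, were at the edge of detection. All 5 tested were at 0 TPM in every E12 sample and at most 1.72 TPM in any E9 sample. gga-miR-302d, called lower with 0 TPM in E12 muscle, against 0.884, 0.940 and 1.72 TPM in E9 muscle, was the 1 call among the 5 tested. Over all tested miRNAs 8.81% were called lower. The call on gga-miR-302d was lost after centring and without E9-3 (-0.93). In the miR-99, miR-100 and miR-125 group, which shares loci with let-7, 2 of 6, both of them rare 3p arms, were called lower, beside 8.81% over all tested miRNAs. gga-miR-100-3p had 1.997, 1.39 and 1.71 TPM in E12 muscle, against 6.68, 10.9 and 14.2 TPM in E9 muscle (log2 change -2.05 ± 0.28 (SE), limma adjusted p = 0.0194) and gga-miR-99a-3p had 33.8, 21.4 and 18.0 TPM in E12 muscle, against 49.9, 50.9 and 74.1 TPM in E9 muscle (log2 change -1.25 ± 0.29 (SE), limma adjusted p = 0.0644), with the call on gga-miR-99a-3p lost after centring. In the miR-148 and miR-152 group, gga-miR-148a-5p was the 1 called lower of 2, beside 8.81% over all tested miRNAs.

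Of 16 miRNAs from the miR-17-92 and miR-106-363 clusters, known for promoting proliferation, 2 were called higher and 0 lower, beside 3.55% and 8.81% of all tested miRNAs. The median log2 change was -0.52, which counts the arms of miR-18a and miR-18b. Both miRNAs called higher were arms of miR-18b, which were listed at 0 in all E9 samples: gga-miR-18b-3p stood at 199.7, 113 and 129.6 TPM and gga-miR-18b-5p at 37.5, 23.2 and 21.2 TPM in E12 muscle. The arms of miR-18a, a near-identical copy, showed the reverse listing, with gga-miR-18a-3p at 0, 0 and 0 TPM in E12 muscle, against 0, 76.3 and 93.2 TPM in E9 muscle, and gga-miR-18a-5p at 0, 0 and 0 TPM in E12 muscle, against 0, 57.6 and 108 TPM in E9 muscle. Reads of such copies can be assigned to either name, so no fold is given for them. gga-miR-92-3p, the most abundant miRNA of E12 muscle, had 58916, 52852 and 64890.3 TPM in E12 muscle, against 51380.5, 32789 and 30438 TPM in E9 muscle and was not called (log2 change 0.66 ± 0.24 (SE), 95% interval 0.07 to 1.25), although every E12 sample lay above every E9 sample.

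No member was called in the lists of white blood cell miRNAs (9 tested, median log2 change -0.25), the liver miRNA miR-122 (2, 0.08), miR-181 (5, -0.22), miR-29 (7, 0.10), miR-15 and miR-16 (10, -0.32), miR-23, miR-27 and miR-24 (6, -0.22), miR-221 and miR-222 (5, 0.36), miR-204 and miR-211 (2, -0.22), miR-103 and miR-107 (5, -0.56), miR-128 (3, 0.16) and miR-34 and miR-449 (9, -0.09). Over all tested miRNAs 12.4% were called. After centring, members of 5 of these lists were called higher and 0 lower, beside 11.9% and 4.97% over all tested miRNAs. They were 1 white blood cell miRNA, 2 of miR-29, 1 of miR-23, miR-27 and miR-24, 1 of miR-221 and miR-222, and 2 of miR-34 and miR-449. Among the miRNAs of highest level, the 10 most abundant at each stage shared 8 names. gga-miR-125b-5p, the most abundant in E9 muscle, had 73017, 36103 and 41199 TPM in E12 muscle, against 93232, 44067 and 56596 TPM in E9 muscle (log2 change -0.37 ± 0.39 (SE)). gga-miR-181a-5p had 31199, 17714 and 19597 TPM in E12 muscle, against 28959, 19827 and 28808 TPM in E9 muscle (log2 change -0.20 ± 0.28 (SE)), gga-miR-128-3p had 22723, 13877 and 16986 TPM in E12 muscle, against 19634, 17897 and 21504 TPM in E9 muscle (log2 change -0.17 ± 0.22 (SE)) and gga-miR-100-5p had 21924, 11527 and 14609 TPM in E12 muscle, against 27468, 19769 and 25392 TPM in E9 muscle (log2 change -0.63 ± 0.28 (SE)). The stages overlapped for each of these 4, and the sign of the change in gga-miR-125b-5p, gga-miR-181a-5p and gga-miR-128-3p was positive after centring (0.11, 0.27 and 0.31).

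Some of the miRNAs for which the study lists PCR primers overlapped between the stages. gga-let-7a-2-3p had 175, 102 and 106 TPM in E12 muscle, against 135, 70.7 and 88.5 TPM in E9 muscle (log2 change 0.38 ± 0.33 (SE)), gga-miR-204, which shares every value with gga-miR-211, had 287, 491 and 187 TPM in E12 muscle, against 436, 274 and 347 TPM in E9 muscle (log2 change -0.22 ± 0.39 (SE)), and new-gga-miRNA-11 had 32.6, 23.0 and 11.9 TPM in E12 muscle, against 29.3, 21.9 and 29.7 TPM in E9 muscle (log2 change -0.35 ± 0.37 (SE)). new-gga-miRNA-15 had 127, 53.4 and 70.5 TPM in E12 muscle, against 73.8, 31.4 and 29.6 TPM in E9 muscle, with a log2 change of 0.92 ± 0.48 (SE) and a limma adjusted p of 0.323. E12-2 and E12-3 lay inside the E9 range for new-gga-miRNA-15, and E12-2 was the highest of all 6 samples for gga-miR-204.

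Both arms of a hairpin are counted in the same library, so a scale factor of the sample cancels from their ratio, apart from the pseudocount, which weighs on arms near 1 TPM. For each hairpin name whose arms both averaged 1 TPM or more over the 6 samples, log2(5p TPM + 1) minus log2(3p TPM + 1) was compared by the same rule. Of 74 hairpins, 28 were called (37.8%), all of them also at adjusted p, 14 with a higher 5p share and 14 with a lower 5p share in E12 muscle, and the stages did not overlap for 27. The count was 27 without miR-18b, whose arms are at 0 in E9 muscle, and 19 among the 44 hairpins with both arms at 10 TPM or more. In 50 of the 74 the arms changed with the same sign, and in 7 the sign of the mean ratio differed between the stages. These 7 count miR-18a and miR-18b, which have no more abundant arm at the stage where both arms are at 0 (E12 for miR-18a, E9 for miR-18b).

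The largest change among called hairpins was in miR-30a. Its ratio was 0.80, 0.64 and 0.42 in E12 muscle, against 3.18, 2.85 and 3.53 in E9 muscle, a difference of -2.57 ± 0.26 (SE) (limma, adjusted p = 0.000268), where the 3p arm was called higher and the 5p arm was not called (log2 changes 2.03 and -0.54). miR-30e moved in the same way, with ratios of 1.36, 1.23 and 0.82 in E12 muscle, against 3.45, 2.70 and 3.25 in E9 muscle (difference -1.998 ± 0.28 (SE), limma adjusted p = 0.00115). In miR-9 both arms fell but the 3p arm fell further: the ratio was 2.31, 2.47 and 2.38 in E12 muscle, against 0.43, 0.16 and -0.12 in E9 muscle (difference 2.23 ± 0.23 (SE), limma adjusted p = 0.000268). The arms of miR-9 were thus about equal at E9 and the 5p arm led at E12. miR-130a and miR-130c gained 5p against 3p, with differences of 2.01 ± 0.36 (SE) and 1.65 ± 0.36 (SE) (limma adjusted p = 0.00294 and 0.00744).

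In the muscle hairpins, the ratio of miR-133a was -8.41, -8.59 and -8.45 in E12 muscle, against -7.42, -7.37 and -6.97 in E9 muscle, a fall by the 5p arm relative to the 3p arm (difference -1.23 ± 0.23 (SE), limma adjusted p = 0.00362), and that of miR-499 was 2.15, 1.82 and 1.57 in E12 muscle, against 2.08, 3.22 and 3.78 in E9 muscle (difference -1.18 ± 0.42 (SE), limma adjusted p = 0.0483), with E12-1 above E9-1. The call on miR-499 was lost without E12-3 (-1.04), E9-2 (-1.08) or E9-3 (-0.80). In miR-126 the ratio was -0.06, 0.32 and 0.20 in E12 muscle, against -1.27, -0.48 and -1.05 in E9 muscle (difference 1.09 ± 0.27 (SE), limma adjusted p = 0.0125), so that the 3p arm led in every E9 sample and the arms were near equal in E12 muscle, and the call was lost without E9-1 (0.92). In miR-26a (-1.37 ± 0.22 (SE)) the abundant 5p arm was called lower and the rare 3p arm was not called (log2 changes -1.12 and 0.25). The rarer arm had the larger negative change in miR-148a (-1.39 ± 0.24 (SE)), miR-140 (-1.27 ± 0.32 (SE)) and miR-100 (1.42 ± 0.35 (SE)). In miR-106 (-1.25 ± 0.24 (SE)) the 3p arm led in the E12 mean and the 5p arm in the E9 mean. The difference in miR-31, -1.61 ± 0.41 (SE), came with a 3p arm of at most 3.63 TPM in any sample, and its direction reversed to 0.23 with a pseudocount of 0.1.

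**Figure D5:**
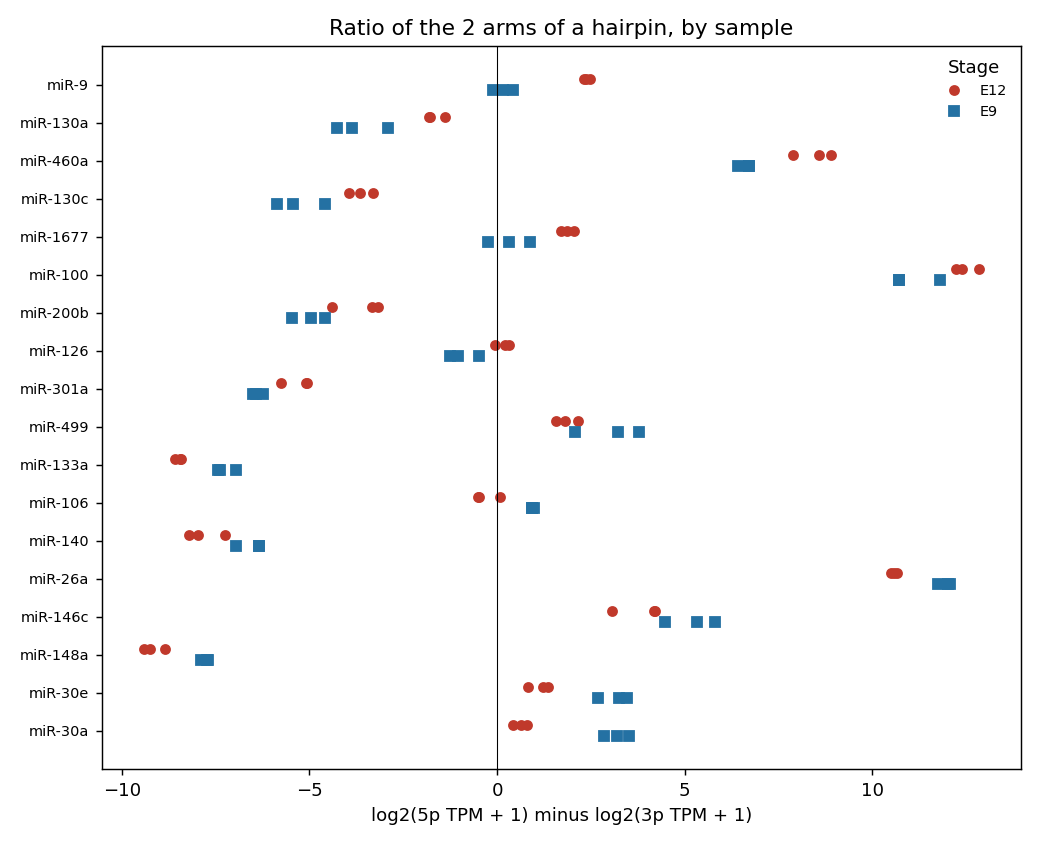
Ratio of the 5p to the 3p arm, as log2(5p TPM + 1) minus log2(3p TPM + 1) (x axis), for the 18 called hairpins with both arms at 10 TPM or more and no arm at 0, in each E12 sample (red circles, above) and each E9 sample (blue squares, below). Points right of 0 have more 5p than 3p. The stages separate in all but miR-499, with miR-30a (-2.57 ± 0.26 (SE)) and miR-9 (2.23 ± 0.23 (SE)) the widest apart in each direction.

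Genes of known miRNAs were placed by the chicken RefSeq annotation (GRCg7b), in which 624 of the 687 known names matched a gene, and genes within 10 kb of a neighbour were grouped. Of 33 such groups with tested members, 15 held at least 1 called miRNA and 5 held at least 2. Repeated annotation entries of the same gene name were counted as neighbours, so a group can hold a single gene name, as that of MIR101-1 does. The call on gga-miR-101-3p was counted in the groups of MIR101-1 and of MIR101-2. Over all tested miRNAs 12.4% were called and 8.81% were called lower, which are shares of single miRNAs and not of groups with several members. Only the 5 groups with at least 2 could hold calls in both directions, and 0 did. Among these 5, gga-miR-301a-3p and gga-miR-301b-3p were counted in both groups of miR-130 and miR-301 genes. The calls of another were the arms of miR-18b, listed at 0 in E9 muscle. The group of the miR-200b, miR-200a and miR-429 genes had 6 tested members, all with negative changes and 3 called lower. The group of miR-130a, miR-301a and miR-454 genes had 8 tested members, 6 with negative changes and 3 called lower, and 2 with positive changes. miR-99a with let-7c and miR-100 with a let-7a gene each held 1 called 3p arm while their let-7 members were not called lower. A mature miRNA made from several genes is counted in each of their groups.

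Values at the stages before and after place these changes in time, although the E7 samples are whole embryos by the study's methods, and comparisons that share E12 or E9 samples are not independent. No test was run on them. gga-miR-133a-3p stood at 3067, 3049 and 2897 TPM at E7, at 12579, 7408 and 8627 TPM at E9, at 73212, 31466 and 36933 TPM at E12 and at 95174, 70499.8 and 80647 TPM at E15, so that its E15 values lay near or above the highest E12 value. gga-miR-1416-5p stood at 454.4, 622 and 441 TPM at E7, 1103, 803 and 1161 TPM at E9, 7564, 4065 and 6249 TPM at E12 and 4504, 3018 and 2303 TPM at E15, with the highest value in E12-1 and with E15-1 above E12-2. gga-miR-30a-3p stood at 167, 149 and 169.7 TPM at E7, 195, 185 and 253 TPM at E9, 1075, 683 and 851 TPM at E12 and 1064, 892 and 636 TPM at E15, a step between E9 and E12 with like values on either side.

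Among the falls, gga-miR-9-3p stood at 10281, 7900.5 and 8738 TPM in whole embryos at E7, 292, 204 and 1541 TPM at E9, 29.96, 15.8 and 14.3 TPM at E12 and 12.9, 44.4 and 44.5 TPM at E15. gga-miR-140-3p stood at 19489, 20885 and 18426 TPM at E7, 27417, 26935 and 34453 TPM at E9, 16966, 8509.9 and 8149.9 TPM at E12 and 9565, 7938 and 2869.5 TPM at E15, so that E9 muscle held the highest values of the 4 stages. gga-miR-205a stood at 23048, 26235 and 20138 TPM at E7, 40713, 30389.9 and 26844 TPM at E9, 4374, 56768 and 1371 TPM at E12 and 12073, 15748 and 5175 TPM at E15, and the E15 samples lay between E12-1 and E12-2. gga-miR-31-5p stood at 344, 288 and 279 TPM at E7, 127, 342 and 569 TPM at E9, 36.6, 66.5 and 15.99 TPM at E12 and 14.3, 21.9 and 8.21 TPM at E15. gga-miR-454-3p stood at 16155, 7727 and 15849 TPM at E7, 8646, 2618 and 6999 TPM at E9, 9207, 4203 and 6042 TPM at E12 and 3514, 2365 and 2527 TPM at E15, with its lowest values at E15 and E9-2.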

How the data were processed

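Small RNA of 6 pectoral muscle samples, 3 at E12 and 3 at E9, was analysed from the deposited table of all stages. Per the labels and the methods of the study, the authors trimmed reads with cutadapt, removed other small RNAs by alignment with Bowtie (bowtie2 in the methods), matched reads mapped to the chicken genome to miRBase and predicted further miRNAs with miRDeep2 on the zebra finch genome. Tool versions and genome build are not given in the sources used here. The authors deposited values called TPM. They are RPM values scaled by the authors to a library total, since every value above 0 was a whole multiple of the value of 1 read to within 0.1 read, in all 6 samples (100%). The planned tests assumed TPM and serve RPM on a log scale equally. The totals recovered from these steps were 9347754 to 11514871 reads, which limits counting error only, and PCR duplicates were not separable. No column of the table was left unmapped among those used (0 columns).

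Stages were taken from the labels. The main test was limma on log2(TPM + 1) with a pseudocount of 1, two-sided, over the 704 miRNAs not at 0 throughout, with Benjamini-Hochberg adjustment over all of them. Arm ratios were tested in the same way, and single values by exact permutation. The miRNAs named are those called that averaged 1000 TPM or more, the 10 most abundant at each stage and miRNAs the study names. The 10 largest rises and 10 largest falls among called miRNAs with at least 10 TPM and no overlap are named too. Members of the lists with at least 10 TPM and hairpins called at adjusted p were eligible, and only a part of them is named. Others are marked as chosen after their values were seen. The members and the lists (muscle, myoblast, cell type markers, families and clusters) were chosen with earlier results of these data known. Deviations of same-numbered samples from their stage means correlated at 0.32, 0.36 and -0.16 for replicates 1, 2 and 3. Same-numbered samples were each other's best match for replicates 1 and 2 but not for replicate 3. The main fit did not pair samples by these numbers, and whether same-numbered samples share a factor was not tested. Leaving out each replicate, another pseudocount, a filter at 1 TPM, untransformed values, centring, rescaling, a fit of 39 muscle samples, a mean-variance trend, the replicate block, and edgeR and DESeq2 on recovered reads of 5 samples were alternatives set out with the design. The fits of 5 samples left out E9-3, because a separate check had not established its values as whole reads. The recovered total of E9-3 is therefore less certain than the others. A call lost in these fits cannot be assigned to the method or to the missing sample. edgeR on all 6 samples and fits without zero-listed or duplicated names were chosen after the data were seen. Scripts were tested on simulated data. R 4.3.3, limma 3.58.1, edgeR 4.0.16, DESeq2 1.42.0, Python 3.11.15, pandas 2.3.3, NumPy 2.4.6 and Matplotlib 3.10.9 were used.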

Additional observations from a re-analysis of the deposited data

How the results depend on the processing

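No called miRNA changed direction under any alternative run. The called miRNAs named gave 1236 values under the alternatives, of which 1065 kept the call and 171 lost it. Of 231 values of arm ratios 221 kept it and 9 lost it. Named miRNAs that were not called in the main fit gained the call in 56 values under the alternatives. After centring, those that gained a higher call included gga-miR-92-3p (1.14), gga-miR-133a-5p (1.49), gga-miR-206 (1.07) and new-gga-miRNA-15 (1.39). Of 60 called miRNAs with at least 10 TPM and not listed at 0, 40 were called in all 6 fits that leave out 1 sample (10 higher, 30 lower), and 32 of these also after centring (10 higher, 22 lower).

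With a pseudocount of 0.1, 134 miRNAs were called, 97 of them lower, and 20 at adjusted p. Untransformed TPM gave 1 at adjusted p, and 27 calls in the lists, against 41. Centring gave 84 higher, 35 lower and 72 at adjusted p. Rescaling to the listed sum gave 44 higher and 72 at adjusted p, and 55 and 67 without gga-miR-133a-3p and gga-miR-205a in that sum. At adjusted p, the fit of all muscle samples called 90 and the mean-variance trend 16. DESeq2 on 5 samples gave 46 higher and 70 at adjusted p, and edgeR on all 6 gave 40 and 75. As a share of the library total, the myomiRs differed by 3.98 percentage points. With both arms at 10 TPM or more in every test, 16 of 36 arm ratios were called. The replicate block called 6 at adjusted p, and 87 in all.

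Leaving out each replicate in turn gave 73 to 100 calls, 18 to 36 higher, 47 to 77 lower, 6 to 38 at adjusted p and 27 to 30 arm ratios. The E12 minus E9 difference was -49.8 to -22.8 detected miRNAs, -128479 to -30055 summed TPM and 6.63 to 8.95 points in the myomiR share.

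Reversals were confined to changes that were not called, apart from the miR-31 arm ratio (0.23 at a pseudocount of 0.1). Log2 changes turned positive on untransformed TPM for gga-miR-203a (0.16), and after centring for gga-miR-125b-5p (0.11), gga-miR-181a-5p (0.27), gga-miR-128-3p (0.31), gga-miR-204 (0.26), new-gga-miRNA-11 (0.13), and on the listed sum for gga-miR-128-3p (0.015), and on that sum without gga-miR-133a-3p and gga-miR-205a for gga-miR-181a-5p (0.082), gga-miR-128-3p (0.12), gga-miR-204 (0.067), and by edgeR on 5 samples for gga-miR-181a-5p (0.0093), gga-miR-128-3p (0.017), gga-miR-204 (0.070), gga-miR-203a (0.52), and by DESeq2 on 5 samples for gga-miR-181a-5p (0.037), gga-miR-128-3p (0.045), gga-miR-204 (0.072), and by edgeR on all 6 for gga-miR-204 (0.12), gga-miR-203a (0.55). Beside the losses given above, calls were lost at the pseudocount of 0.1 for miR-126-3p, miR-219b, new-gga-miRNA-5, and on untransformed TPM for miR-10a-3p, miR-10a-5p, miR-124a-3p, miR-126-3p, miR-144-5p, miR-183, miR-193b-3p, miR-196-1-3p, miR-205b, miR-219b, miR-30e-5p, miR-31-5p, miR-499-3p, miR-9-3p, miR-9-5p, new-gga-miRNA-5, and on the listed sum for miR-126-3p, miR-130a-3p, miR-144-5p, miR-1677-5p, miR-193a-3p, miR-205b, miR-219b, miR-26a-5p, and in the fit of all muscle samples for miR-124a-3p, miR-144-5p, miR-499-3p, new-gga-miRNA-5, and by edgeR on 5 samples for miR-124a-3p, miR-126-3p, miR-130a-3p, miR-144-5p, miR-193a-3p, miR-196-1-3p, miR-199-5p, miR-200a-3p, miR-200b-3p, miR-205b, miR-219b, miR-26a-5p, miR-301b-3p, miR-30e-5p, miR-99a-3p, new-gga-miRNA-5, and by DESeq2 on 5 samples for miR-101-3p, miR-124a-3p, miR-126-3p, miR-130a-3p, miR-144-5p, miR-193a-3p, miR-196-1-3p, miR-199-5p, miR-200b-3p, miR-205b, miR-219b, miR-26a-5p, miR-301b-3p, miR-30e-5p, miR-99a-3p, new-gga-miRNA-5, and under the replicate block for miR-124a-3p, miR-144-5p, miR-205b, and by edgeR on all 6 for miR-124a-3p, miR-126-3p, miR-200b-3p, miR-205b, miR-219b, miR-26a-5p. With each replicate left out in turn, the range was -0.023 to 0.33 for gga-let-7i, -0.19 to 0.30 for gga-miR-126-5p, -0.35 to 0.0017 for gga-miR-128-3p, -0.19 to 0.41 for gga-miR-144-3p, -0.11 to 0.54 for gga-miR-196-5p, -0.58 to 0.12 for gga-miR-204, -0.34 to 0.53 for gga-miR-454-3p, -0.31 to 0.78 for gga-miR-499-5p, -0.66 to 0.034 for new-gga-miRNA-11. The median of the opposing list reversed at the pseudocount of 0.1 (0.015) and after centring (0.46), as did those of the erythroid (0.014) and pluripotency lists (0.057) after centring. The causes were not tested. Seed families were not run because no mature sequences were used here. Library totals limit statements on miRNAs under 1 TPM, and 3 samples per stage limit the rest.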

Other observations

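The miRNAs of this section were chosen for naming after their values were seen. gga-miR-2954, which lies on the Z chromosome and is known from birds as higher in males, had 1064, 697 and 4782 TPM in E12 muscle, against 739.7, 422 and 478 TPM in E9 muscle (log2 change 1.52 ± 0.74 (SE), limma adjusted p = 0.294). E12-3 was the highest of the 6 samples, and the other 5 spanned 422 to 1064 TPM. The labels do not give the sex of the embryos, and a part of sex in these values was not tested. Some low predicted miRNAs were seen mainly at one stage: new-gga-miRNA-60 had 0.174, 0.428 and 0 TPM in E12 muscle, against 3.64, 3.97 and 2.52 TPM in E9 muscle (log2 change -1.87 ± 0.21 (SE), limma adjusted p = 0.0106), and new-gga-miRNA-195 was at 0 TPM in E12 muscle, against 1.77, 1.04 and 1.51 TPM in E9 muscle. new-gga-miRNA-102 had 2.17, 2.25 and 5.23 TPM in E12 muscle, against 0, 0.627 and 0 TPM in E9 muscle (log2 change 1.77 ± 0.35 (SE), limma adjusted p = 0.0485).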
